A study of Mus musculus with 6 samples.

Results

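The genes described here encode the fibroblast growth factor (FGF) pathway's ligands, its receptors, and the inhibitors and ETS transcription factors that the pathway induces. They were chosen by symbol, and the rule uses no measured value: 20 FGF ligand genes, Fgfr1 to Fgfr4 and Fgfrl1, the Sprouty genes Spry1, Spry3 and Spry4, the Spred genes Spred1 to Spred3, and Etv1, Etv4 and Etv5. These 34 genes were among 30631 in the deposited tables. A value of at least 10 normalized counts in at least 3 libraries was reached by 24 of the 34, which were tested, and by 17034 of all genes. The 10 genes below that level were all ligands. Every tested gene reached 10 in at least 4 libraries, Fgf5 in the fewest.

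Secreted FGFs bind receptor tyrosine kinases together with heparan sulfate, and the receptors signal largely through RAS and the ERK kinases. ERK signalling induces the PEA3-group ETS factors Etv1, Etv4 and Etv5 as well as Sprouty and Spred proteins, which dampen the same cascade. In the embryo, FGF signals help to maintain heart progenitors and to pattern the heart tube.

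RNA sequencing was done on mouse embryonic stem cell (ESC) clones kept on a layer of embryonic fibroblasts. They were turned by the hanging-drop method into cells resembling cardiomyocytes of the sinoatrial node, where the heartbeat starts, and cells carrying CD166, the product of Alcam, were collected on a cell sorter at stage 7+1 days. The labels name 3 libraries Shox2-/- and 3 libraries wild type, which were also written Shox2+/+. Shox2 is a homeobox transcription factor required for the sinoatrial node. The titles give the Shox2-/- libraries 1, 2 and 3 the differentiation-like numbers Diff7, Diff8 and Diff9 and 1 shared clone-like prefix, whereas the wild type libraries 1, 2 and 3 carry Diff9, Diff9 and Diff811 and 3 different prefixes, so that genotype and clone cannot be told apart. How the allele was made, and whether the libraries of a group came from separate cultures, is not given in the sources used here, and p-values here reflect the scatter of these libraries alone, which may be technical. Wild type libraries 1 and 2, both Diff9, were much alike, and an SD or interval with n = 3 counts them as separate samples.

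Library depth was 13782017 to 31151471 reads in the libraries labelled Shox2-/- and 13504683 to 34650564 reads in those labelled wild type. The targeted gene went against its label: Shox2 gave 201, 548 and 373 normalized counts in the libraries labelled Shox2-/-, against 89.6, 83.4 and 31.4 in those labelled wild type (log2 difference 2.46, SE 0.50, limma adjusted p = 0.201), and whether the counted reads lie in a deleted part of the gene is not known here. Every direction below is therefore one between labels. Alcam stood at 4176, 5312 and 4304 normalized counts in the libraries labelled Shox2-/- and 6591, 6526 and 5841 in those labelled wild type. All 11 cardiomyocyte markers examined reached 10 normalized counts in all 6 libraries, with sums of 14960 to 39060 in the libraries labelled Shox2-/- and 11731 to 32634 in those labelled wild type. The 10 pluripotency and epiblast markers and the 9 endothelial markers also reached 10 in all 6, so this level does not tell cell types apart. Wild type library 3 stood apart, with the lowest cardiomyocyte sum (11731), the lowest endothelial sum (3946, against 8600 to 13127 in the libraries labelled Shox2-/- and 15104 and 15110 in the other libraries labelled wild type) and the highest mesenchymal sum (600635, against 185405 to 282504 in the libraries labelled Shox2-/- and 380693 and 375980 in the other libraries labelled wild type). Shox2-/- library 1 differed too, with the lowest endodermal (907), epicardial (2170), epithelial (6256) and mesenchymal (185405) sums. Its cardiomyocyte sum (14960) was next to the lowest.

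No FGF gene passed the test between the labels. On the log2(value + 1) scale, limma with Benjamini-Hochberg adjustment over all 17034 genes called 0 of the 24 tested FGF genes at an adjusted p under 0.05, with adjusted p from 0.195 to 0.951, and 0 of all genes (0.0%). At an unadjusted p under 0.05 it passed 8 of the 24 FGF genes (4 higher and 4 lower in the libraries labelled Shox2-/-), against 2411 of all genes (14.2%). Another fit, voom with a quality weight for each library, called 354 of all genes and 3 of the FGF genes, Fgf3, Etv4 and Spred1, while voom without the weights called 0 of all genes. The median log2 difference was 0.13 over the FGF genes and 0.01 over all genes, with 14 of the 24 and 51.8% of all genes higher in the libraries labelled Shox2-/-. The values of the 2 labels did not overlap for 8 of the 24 FGF genes (33.3%), against 23.6% of all genes. Higher without overlap in the libraries labelled Shox2-/- were Fgf3, Fgf15, Spred2 and Fgfrl1, against 12.8% of all genes, and lower without overlap were Fgf11, Spry3, Fgf5 and Fgf9, against 10.8%. In these bulk libraries, fewer cells of a type and less RNA per cell cannot be told apart.

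**Figure D1:**
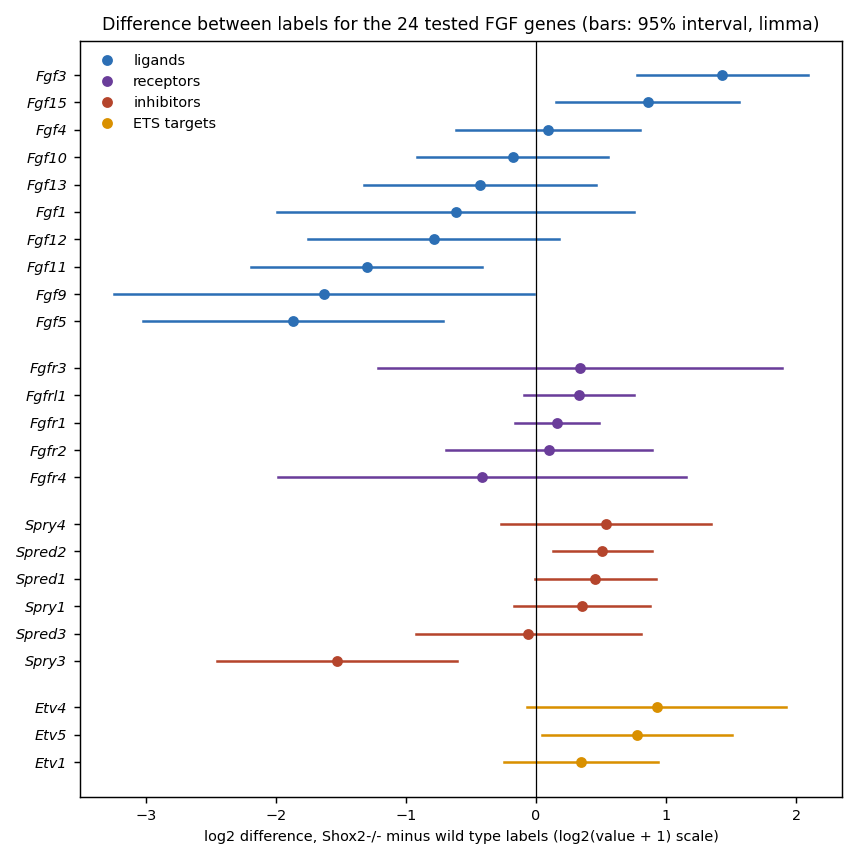
Log2 difference of the libraries labelled Shox2-/- minus those labelled wild type for the 24 tested FGF genes, with points for the limma estimate on the log2(value + 1) scale and bars for its 95% interval (3 libraries a label). Fgf3 has the highest estimate, 1.43, and Fgf5 the lowest, -1.87, while the intervals of all receptors span 0.

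For the 6 of these 8 genes with an entry in RefSeq's promoter table (build GRCm38.p6), the 250 bases before the start annotated there are shown. They run 5′ to 3′ in the gene's direction, so that the proximal sequence can be set beside the counts. The gene spans given below come from another annotation (GENCODE M21), whose edges can differ from the RefSeq starts. By those spans, the windows of Fgf3, Fgfrl1 and Fgf9 lie inside the gene, and that of Spred2 partly does. Capitals mark a 6-base form of the ETS binding site, CGGAAG or its reverse complement CTTCCG, the class of site that Etv1, Etv4 and Etv5 can bind. Only this form was searched. Shorter GGAA or TTCC stretches, which other ETS sites share, are not marked, and they also occur in the windows without capitals.
Fgf3, chr7:144838362-144838611, plus strand: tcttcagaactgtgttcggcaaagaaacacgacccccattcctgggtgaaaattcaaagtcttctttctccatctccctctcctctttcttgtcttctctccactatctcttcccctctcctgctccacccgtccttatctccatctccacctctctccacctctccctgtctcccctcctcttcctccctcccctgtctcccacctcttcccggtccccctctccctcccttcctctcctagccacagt
Spred2, chr11:19924192-19924441, plus strand: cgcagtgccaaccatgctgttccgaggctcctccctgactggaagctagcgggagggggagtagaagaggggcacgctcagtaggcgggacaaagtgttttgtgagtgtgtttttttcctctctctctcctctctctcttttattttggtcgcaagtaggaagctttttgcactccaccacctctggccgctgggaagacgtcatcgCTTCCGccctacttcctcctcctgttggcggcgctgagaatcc
Fgfrl1, chr5:108693979-108694228, plus strand: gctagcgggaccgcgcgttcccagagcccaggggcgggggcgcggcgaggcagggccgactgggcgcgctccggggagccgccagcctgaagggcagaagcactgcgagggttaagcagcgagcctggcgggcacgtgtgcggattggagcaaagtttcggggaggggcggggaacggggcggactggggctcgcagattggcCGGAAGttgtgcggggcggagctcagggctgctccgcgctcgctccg
Fgf11, chr11:69802281-69802530, minus strand: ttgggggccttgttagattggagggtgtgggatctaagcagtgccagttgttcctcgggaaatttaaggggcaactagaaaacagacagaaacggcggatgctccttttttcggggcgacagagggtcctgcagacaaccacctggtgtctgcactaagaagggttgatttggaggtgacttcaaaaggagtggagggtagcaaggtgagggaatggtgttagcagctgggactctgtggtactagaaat
Fgf5, chr5:98253934-98254183, plus strand: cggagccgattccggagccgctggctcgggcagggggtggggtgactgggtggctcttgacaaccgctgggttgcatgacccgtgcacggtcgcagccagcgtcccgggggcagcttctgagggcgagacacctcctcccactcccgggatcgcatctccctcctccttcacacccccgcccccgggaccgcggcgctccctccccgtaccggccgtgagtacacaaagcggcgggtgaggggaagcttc
Fgf9, chr14:58072436-58072685, plus strand: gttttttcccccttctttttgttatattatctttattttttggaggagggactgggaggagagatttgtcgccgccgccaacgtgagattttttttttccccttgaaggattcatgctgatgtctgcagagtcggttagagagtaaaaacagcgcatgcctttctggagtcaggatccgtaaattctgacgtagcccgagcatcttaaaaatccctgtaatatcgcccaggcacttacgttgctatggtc
The form CGGAAG or CTTCCG was found 47 bases before the RefSeq start of Fgfrl1 and 43 bases before that of Spred2. Both genes were higher without overlap in the libraries labelled Shox2-/-. Other ETS sites were not searched for. The CGGAAG form was in none of the windows shown for Fgf3, Fgf11, Fgf5 and Fgf9. Searched on both strands, it was in 6 of 33 start-site windows of the 24 FGF genes in that table (those of Spred1, Fgf23, Fgfrl1 and Spred2 and a pair of Fgf12 windows), against 13.6% of all 32851 windows of this length. The homeodomain core TAATTA was in 0 of the 33 windows and 4.84% of all windows, and the AP-1 site TGACTCA was in 1 of the 33 (a Fgf12 start) and 4.46% of all. A match of letters is a description and not a bound site. Guanine and cytosine made up 73.6% of the Fgfrl1 window, 70.8% of the Fgf5 window, 56.0% of the Spred2 window, 55.2% of the Fgf3 window, 51.2% of the Fgf11 window and 44.8% of the Fgf9 window, against a median of 52.4% over all windows.

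Among the ligands, Fgf3 and Fgf15 were higher and Fgf11, Fgf5 and Fgf9 lower without overlap in the libraries labelled Shox2-/-. Of the 10 ligand genes tested, 3 were higher and 7 lower, with a median log2 difference of -0.53. The 7 lower ones include Fgf11, Fgf12 and Fgf13, of a subfamily that is not secreted by the classical route. Of the secreted ligands tested, Fgf3, Fgf15 and Fgf4 had positive estimates, and Fgf5, Fgf9, Fgf1 and Fgf10 negative ones. Fgf3 (chr7:144838083-144844436, plus strand, GRCm38), a secreted ligand of the Fgf7 subfamily that is expressed in heart progenitors of the second heart field, showed 102, 72.4 and 60.7 normalized counts in the libraries labelled Shox2-/-, against 31.5, 24.1 and 28.3 in those labelled wild type. The lowest library labelled Shox2-/- lay well above the highest labelled wild type. The mean was 78.4 ± 21.3 under the Shox2-/- label and 28.0 ± 3.72 under the wild type label (SD, n = 3 each), a log2 difference of 1.43 (SE 0.28, 95% interval 0.77 to 2.09, limma adjusted p = 0.195). Those values rest on 59, 81 and 82 reads in the libraries labelled Shox2-/- and on 19, 37 and 36 reads in those labelled wild type. With the adjusted p at 0.195, Fgf3 missed the threshold, and its adjusted p was 0.037 to 0.514 over the other fits.

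Fgf15, the mouse counterpart of human FGF19 and a hormone-like ligand known from the gut that is also made in the pharyngeal region near the embryonic heart, lies on the same stretch of chromosome 7 (chr7:144896531-144900953, plus strand). It gave 201, 107 and 128 normalized counts in the libraries labelled Shox2-/- and 69.7, 64.5 and 101 in those labelled wild type. Here the groups were separated only narrowly, since Shox2-/- library 2 and wild type library 3 lay close to each other. The log2 difference was 0.86 (SE 0.30, 95% interval 0.15 to 1.56, limma adjusted p = 0.300). The antisense gene Gm26793 shares 761 bases (24.9%) of Fgf15's exons, but it had at most 5.19 normalized counts in any library. Since strand use in counting is not stated, reads of such antisense pairs cannot be told apart.

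By the GENCODE spans, Fgf4 lies between Fgf3 and Fgf15, with 2930 bases to the end of Fgf3 and 31287 bases to the start of Fgf15, in a span of 62.9 kb. RefSeq's table puts the start of Fgf4 further from Fgf3, with its window at chr7:144861136-144861385. Fgf4, a ligand that primes embryonic stem cells for differentiation, stood at 84.8, 65.2 and 63.7 normalized counts in the libraries labelled Shox2-/- and 58.1, 50.8 and 98.1 in those labelled wild type. Its groups overlapped, with the highest value in wild type library 3, and the log2 difference was 0.09 (SE 0.30, limma adjusted p = 0.906). The ratio of Fgf3 to Fgf4 was 1.20, 1.11 and 0.954 in the libraries labelled Shox2-/-, against 0.543, 0.474 and 0.288 in those labelled wild type. Fgf15 per Fgf4 was 2.37, 1.64 and 2.01 in the libraries labelled Shox2-/-, against 1.20, 1.27 and 1.03 in those labelled wild type. Both ratios were thus separated between the labels, but Fgf3 and Fgf15 were already separated by themselves, so the ratios are no separate support. In the same stretch, the cell-cycle gene Ccnd1, downstream of Fgf15, showed 1478, 631 and 821 normalized counts in the libraries labelled Shox2-/- and 486, 512 and 1416 in those labelled wild type. The other nearby genes Ano1, Oraov1, Fadd, Ppfia1 and Tpcn2 had log2 differences of -0.14, 0.12, 0.11, 0.07 and -0.32.

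Fgf11 (chr11:69796068-69801857, minus strand) belongs to the subfamily that is not secreted by the classical route and whose members bind voltage-gated sodium channels. It gave 72.7, 141 and 198 normalized counts in the libraries labelled Shox2-/- and 363, 368 and 231 in those labelled wild type. Every library labelled Shox2-/- was below every library labelled wild type, and wild type library 3 was the nearest. The mean was 137 ± 62.6 under the Shox2-/- label and 321 ± 78.0 under the wild type label (SD, n = 3 each), a log2 difference of -1.30 (SE 0.38, 95% interval -2.19 to -0.42, limma adjusted p = 0.256). Fgf12, of the same subfamily, stood at 19.0, 36.6 and 57.8 normalized counts in the libraries labelled Shox2-/- and 71.4, 50.2 and 60.5 in those labelled wild type (log2 difference -0.79, SE 0.41, limma adjusted p = 0.422). Fgf13 showed 13.8, 25.9 and 15.6 normalized counts in the libraries labelled Shox2-/- and 18.3, 22.8 and 34.5 in those labelled wild type (log2 difference -0.43, SE 0.38, limma adjusted p = 0.624). The 3 genes of the subfamily examined here had negative estimates within and outside the Diff9 libraries, which for Fgf11 follows from its separated groups. That of Fgf12 among the Diff9 libraries was near 0, at -0.05, and the groups of Fgf12 and of Fgf13 overlapped.

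Fgf5, which marks the epiblast after implantation, and Fgf9, which the epicardium and endocardium give off to the growing heart muscle, were both low in the libraries labelled Shox2-/-. Fgf5 (chr5:98254184-98277030) gave 3.46, 9.83 and 10.4 normalized counts in the libraries labelled Shox2-/-, against 21.6, 24.8 and 44.8 in those labelled wild type (log2 difference -1.87, SE 0.49, 95% interval -3.02 to -0.72, limma adjusted p = 0.238). Behind it were 2, 11 and 14 reads in the libraries labelled Shox2-/- and 13, 38 and 57 in those labelled wild type. Fgf5 reached 10 in 1 library labelled Shox2-/- and 3 labelled wild type, so that it met the test's level through the wild type label. Fgf9 (chr14:58070547-58112720) stood at 3.46, 13.4 and 10.4 normalized counts in the libraries labelled Shox2-/-, against 18.3, 14.99 and 69.1 in those labelled wild type (log2 difference -1.63, SE 0.69, limma adjusted p = 0.352). In both genes wild type library 3 was highest by a wide margin, and the separation from the other libraries labelled wild type rested on few reads. The 10 epiblast and pluripotency markers summed to 1887 to 2038 normalized counts in the libraries labelled Shox2-/- and 1547 to 2660 in those labelled wild type, and the 8 epicardial markers to 2170 to 4338 in the libraries labelled Shox2-/- and 4715 to 6743 in those labelled wild type. Wild type library 3 was highest for both lists, and their part in the result was not tested.

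Fgf10, the lung and second heart field ligand of the Fgf7 subfamily, had the highest mean level per length of the secreted ligands, at 60.1 normalized counts per kb of exon in the libraries labelled Shox2-/- and 65.2 in those labelled wild type. In Shox2-/- library 1 Fgf15 was higher, at 65.6 normalized counts per kb against 44.0 for Fgf10. It showed 202, 420 and 207 normalized counts in the libraries labelled Shox2-/- and 294, 366 and 239 in those labelled wild type, with overlapping groups (log2 difference -0.18, SE 0.31, limma adjusted p = 0.821). Fgf11 was at 45.1 and 105 normalized counts per kb under the Shox2-/- and the wild type label, and was below Fgf10 and Fgf15 (47.5) under the Shox2-/- label and above both under the wild type label, where Fgf15 was at 25.7. Of the summed level per kb of the 17 secreted ligands, Fgf3 made up 22.0%, 15.1% and 15.5% in the libraries labelled Shox2-/-, against 8.78%, 6.45% and 5.34% in those labelled wild type. Fgf15 made up 33.0%, 17.0% and 24.9% in the libraries labelled Shox2-/-, against 14.8%, 13.1% and 14.5% in those labelled wild type. The share of Fgf10 did not separate the labels, at 22.1%, 44.2% and 26.8% in the libraries labelled Shox2-/- and 41.3%, 49.5% and 22.9% in those labelled wild type. The summed level itself was 199, 206 and 168 normalized counts per kb in the libraries labelled Shox2-/- and 154, 161 and 228 in those labelled wild type.

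The remaining tested ligand, Fgf1, which binds all FGF receptors, gave 12.1, 25.03 and 46.7 normalized counts in the libraries labelled Shox2-/- and 21.6, 35.9 and 69.9 in those labelled wild type (log2 difference -0.62, SE 0.58, limma adjusted p = 0.651). Its groups overlapped. The other 10 ligands were below the test's level. Fgf7, a mesenchymal ligand for epithelium, stood at 3.46, 4.47 and 0 normalized counts in the libraries labelled Shox2-/- and 8.30, 8.47 and 16.5 in those labelled wild type. Fgf21, a metabolic hormone, had no read in the libraries labelled Shox2-/- (3 reads would be 5.19, 2.68 and 2.22 normalized counts there, for counting error only) and 1.66, 0.65 and 15.7 normalized counts in those labelled wild type, which are 1, 1 and 20 reads, so that only wild type library 3 was above the level of 3 reads. Fgf2 showed 3.46, 1.79 and 2.22 normalized counts in the libraries labelled Shox2-/- and 3.32, 2.61 and 23.6 in those labelled wild type, and shares 640 exon bases with the antisense gene Nudt6. Fgf8 and Fgf17, ligands of the Fgf8 subfamily that acts in the second heart field, reached 8.94 and 8.89 normalized counts at most in the libraries labelled Shox2-/- and 14.1 each in those labelled wild type. Fgf18 and Fgf22 stayed below 10 in every library, as did Fgf16, Fgf20 and Fgf23, which reached 2.22 at most. These 8 genes had overlapping groups and were not tested.

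**Figure D2:**
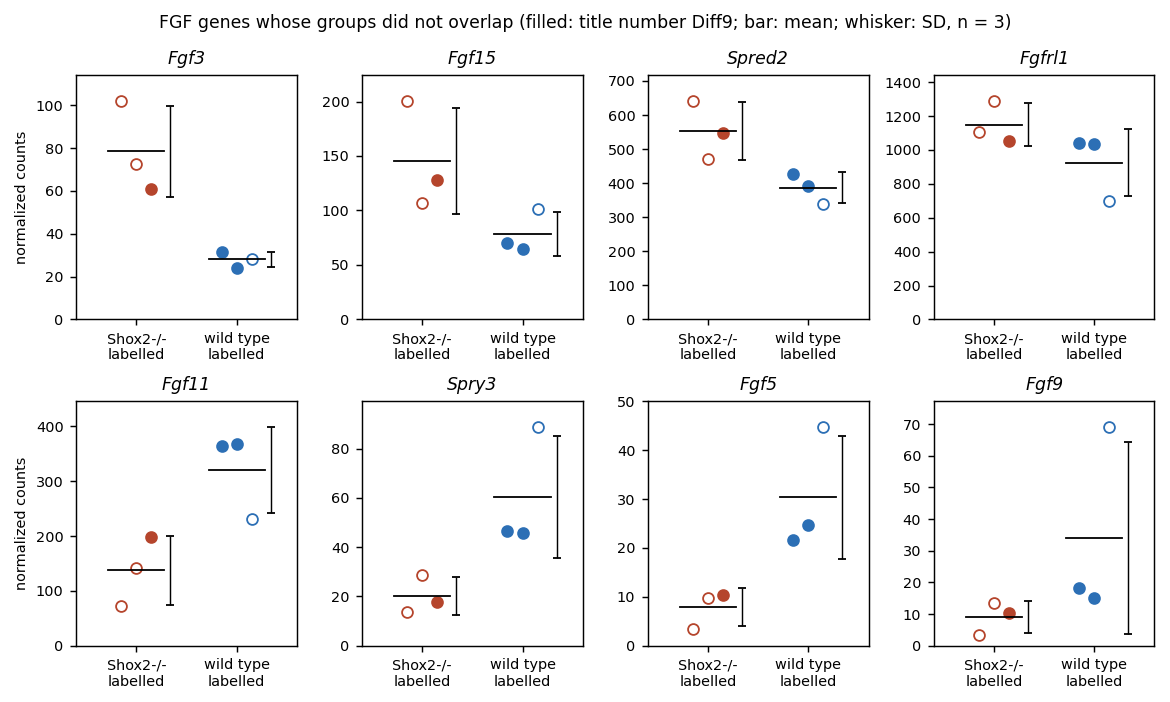
Normalized counts of the 8 tested FGF genes whose groups did not overlap, per library, with the libraries labelled Shox2-/- at left in each panel, those labelled wild type at right, filled points for Diff9 libraries, a line for the mean and a whisker for the SD (n = 3). Fgf3, Fgf15, Spred2 and Fgfrl1 lie higher at left, whereas Fgf11, Spry3, Fgf5 and Fgf9 lie lower, with wild type library 3 (open, right) highest for Spry3, Fgf5 and Fgf9.

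Under both labels Fgfr1, Fgfr2, Fgfr3 and the kinase-lacking Fgfrl1 were well expressed, and Fgfr4 was barely detected. Per kb of exon, Fgfrl1 was highest, at 413 normalized counts in the libraries labelled Shox2-/- and 332 in those labelled wild type, and Fgfr2 came next, at 267 under each label. Fgfr1 was at 212 normalized counts per kb in the libraries labelled Shox2-/- and 191 in those labelled wild type, Fgfr3 at 193 under the Shox2-/- label and 194 under the wild type label, and Fgfr4 at 4.24 under the Shox2-/- label and 4.74 under the wild type label. Because wild type library 3 was low for several of them, the place of Fgfr1 beside Fgfr2 and Fgfr3 was not resolved beyond the spread between libraries, whereas Fgfrl1 was above Fgfr2, and Fgfr2 above Fgfr3, in all 6. Fgfrl1 (chr5:108692382-108706924), which binds ligands but has no tyrosine kinase domain, gave 1106, 1291 and 1053 normalized counts in the libraries labelled Shox2-/-, against 1039, 1038 and 698 in those labelled wild type. Shox2-/- library 3 and the wild type libraries 1 and 2 were nearly level. The log2 difference was 0.33 (SE 0.18, limma adjusted p = 0.435).

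Fgfr2 (chr7:130162451-133123350), a main receptor for Fgf3 and Fgf10, stood at 2545, 3224 and 2498 normalized counts in the libraries labelled Shox2-/- and 3398, 3469 and 1414 in those labelled wild type (log2 difference 0.10, SE 0.34, limma adjusted p = 0.909). Fgfr3 (chr5:33721674-33737068) showed 991, 1813 and 1350 normalized counts in the libraries labelled Shox2-/- and 1934, 1909 and 327 in those labelled wild type (log2 difference 0.34, SE 0.66, limma adjusted p = 0.845). In both genes wild type libraries 1 and 2 were above every library labelled Shox2-/-, by a small margin over Shox2-/- library 2, and wild type library 3 was below all other libraries. Fgfr2 shares 314 exon bases (3.04%) with Ctbp2 on the same strand, where reads are uncertain. The span given for Fgfr2 is that of GENCODE and runs far past the start in RefSeq's table, whose window is at chr7:130266809-130267058. All exons of that long span enter the exon length behind the level of Fgfr2 per kb. Without wild type library 3 the sign turned, to -0.33 for Fgfr2 and -0.52 for Fgfr3. Fgfr1 (chr8:25513654-25575718) varied less, with 2254, 1890 and 2139 normalized counts in the libraries labelled Shox2-/- and 2022, 2054 and 1576 in those labelled wild type (log2 difference 0.16, SE 0.14, limma adjusted p = 0.615). Fgfr4 gave 3.46, 22.4 and 19.3 normalized counts in the libraries labelled Shox2-/- and 16.6, 22.8 and 11.0 in those labelled wild type (log2 difference -0.42, SE 0.67, limma adjusted p = 0.805).

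As shares of the summed level per kb of all 5 receptors, Fgfr3 was at 13.7%, 20.6% and 18.3% in the libraries labelled Shox2-/- and 22.9%, 22.4% and 7.65% in those labelled wild type. Fgfrl1 was at 39.3%, 37.8% and 36.7% in the libraries labelled Shox2-/- and 31.6%, 31.3% and 42.1% in those labelled wild type. Neither share separated the labels, since wild type library 3 lay on the far side of the libraries labelled Shox2-/-. Fgfr2 was the steadiest, with 37.1% to 40.9% of the summed level of the 4 kinase receptors in the libraries labelled Shox2-/- and 39.7% to 41.1% in those labelled wild type. The summed level of all 5 was 1012, 1227 and 1031 normalized counts per kb in the libraries labelled Shox2-/- and 1182, 1190 and 596 in those labelled wild type. The low sum in wild type library 3 went with its low cardiomyocyte and endothelial marker sums given above. Shox2-/- library 1, next to the lowest in both of these marker sums (14960 and 8600), had a receptor sum of 1012. The part of the markers in the receptor sums was not tested.

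**Figure D3:**
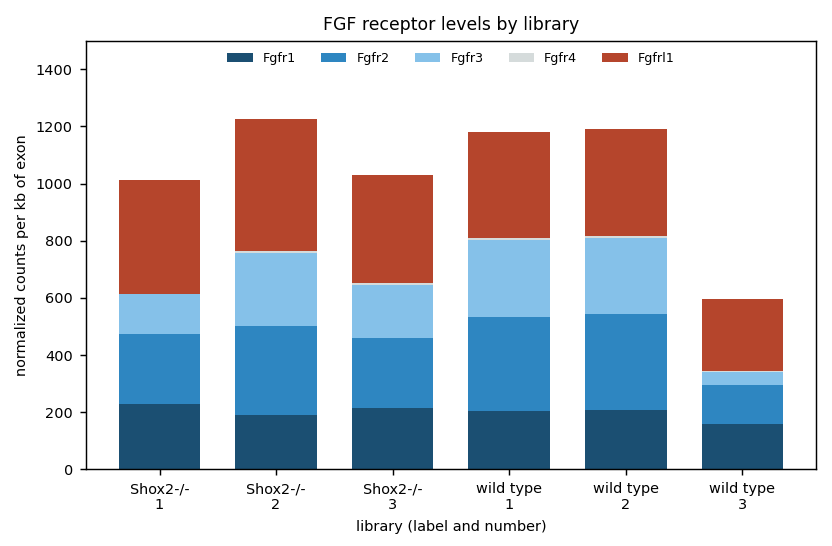
Stacked level of the 5 receptors in each library, in normalized counts per kb of exon, with the 3 libraries labelled Shox2-/- left of the 3 labelled wild type. Wild type library 3 has the lowest stack, 596, and the smallest Fgfr3 block, while the other 5 libraries lie between 1012 and 1227.

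Of the 9 Sprouty, Spred and PEA3-group ETS genes, 7 had positive and 2 negative estimates, with a median log2 difference of 0.45, and 3 of the 9 passed at an unadjusted p under 0.05 (Spred2, Etv5 and Spry3), against 14.2% of all genes. The ETS genes had 3 positive estimates of 3. Etv4 (chr11:101769742-101785371), with a mean of 123 normalized counts per kb under the Shox2-/- label and 68.5 under the wild type label, stood at 509, 244 and 388 normalized counts in the libraries labelled Shox2-/- and 141, 138 and 360 in those labelled wild type. Its groups overlapped through wild type library 3, which lay above Shox2-/- library 2. The log2 difference was 0.93 (SE 0.43, 95% interval -0.07 to 1.92, limma adjusted p = 0.376). Etv5 (chr16:22381309-22439719), which with Etv4 reads out FGF signalling in many embryonic tissues, showed 706, 320 and 392 normalized counts in the libraries labelled Shox2-/- and 232, 226 and 334 in those labelled wild type (log2 difference 0.78, SE 0.31, limma adjusted p = 0.334). Wild type library 3 again overlapped Shox2-/- library 2. Etv1, which in the heart is known for fast conduction of the impulse, gave 126, 100 and 148 normalized counts in the libraries labelled Shox2-/- and 81.3, 88.6 and 126 in those labelled wild type (log2 difference 0.34, SE 0.25, limma adjusted p = 0.551).

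The Spred genes, whose proteins recruit neurofibromin to switch RAS off, included the highest inhibitor. Spred1 (chr2:117121374-117182279) was at 900 normalized counts per kb in the libraries labelled Shox2-/- and 668 in those labelled wild type, and had 7168, 5546 and 5612 normalized counts under the Shox2-/- label against 3778, 3873 and 5941 under the wild type label. Wild type library 3 lay within the range of the libraries labelled Shox2-/-, and the log2 difference was 0.45 (SE 0.20, 95% interval -0.01 to 0.92, limma adjusted p = 0.358). Spred2 (chr11:19924375-20024026), whose promoter window holds the ETS site form marked above, stood at 642, 470 and 547 normalized counts in the libraries labelled Shox2-/-, against 428, 393 and 339 in those labelled wild type. Its groups did not overlap, the mean being 553 ± 86.0 under the Shox2-/- label and 387 ± 44.8 under the wild type label (SD, n = 3 each), and the log2 difference was 0.51 (SE 0.16, 95% interval 0.13 to 0.89, limma adjusted p = 0.286). Spred3 showed 324, 143 and 352 normalized counts in the libraries labelled Shox2-/- and 222, 233 and 356 in those labelled wild type (log2 difference -0.06, SE 0.37, limma adjusted p = 0.951).

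Of the Sprouty genes, which inhibit receptor-to-RAS signalling, Spry3 ran opposite to Spry1 and Spry4. Spry3, on the unplaced scaffold GL456233.1 of the build, gave 13.8, 28.6 and 17.8 normalized counts in the libraries labelled Shox2-/-, against 46.5, 45.6 and 88.7 in those labelled wild type. All libraries labelled wild type were above all those labelled Shox2-/- (log2 difference -1.53, SE 0.39, 95% interval -2.45 to -0.61, limma adjusted p = 0.233). Spry1, at 402 normalized counts per kb in the libraries labelled Shox2-/- and 311 in those labelled wild type, had 1126, 882 and 1493 normalized counts under the Shox2-/- label against 797, 799 and 1120 under the wild type label (log2 difference 0.35, SE 0.22, limma adjusted p = 0.490). Spry4 stood at 349, 181 and 221 normalized counts in the libraries labelled Shox2-/- and 138, 128 and 259 in those labelled wild type (log2 difference 0.53, SE 0.34, limma adjusted p = 0.499). For both Spry1 and Spry4, wild type library 3 overlapped the libraries labelled Shox2-/-.

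**Figure D4:**
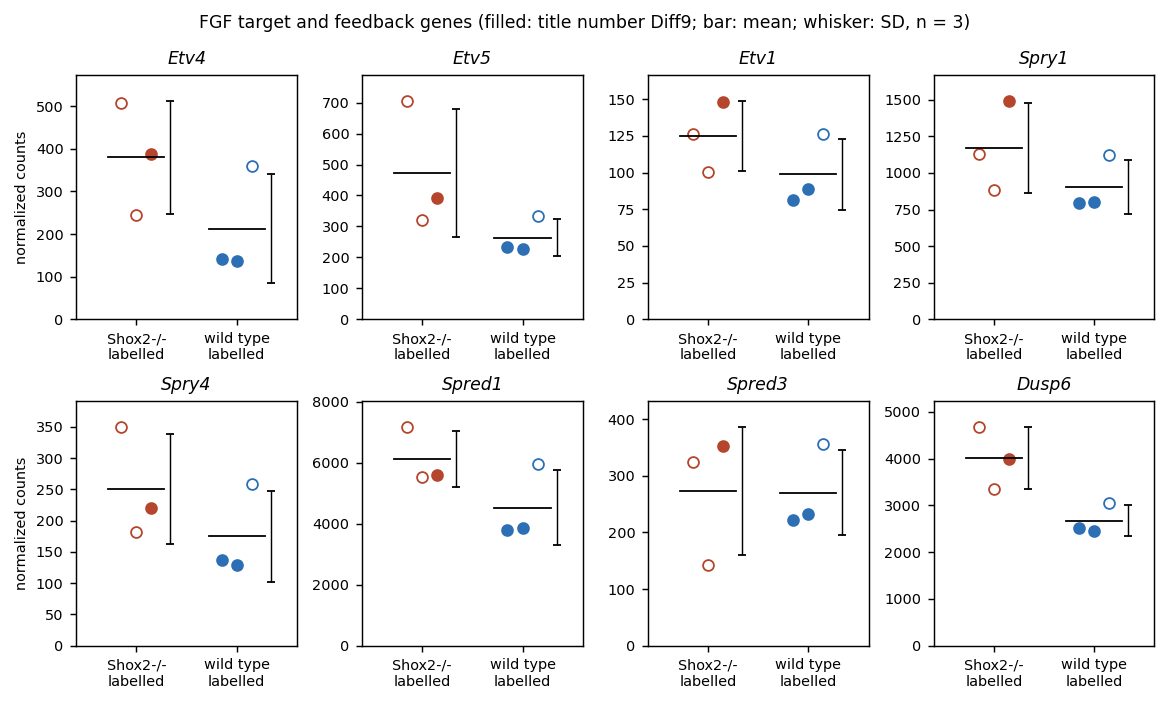
Normalized counts of 3 ETS genes, 4 inhibitors and the ERK phosphatase gene Dusp6 per library, with the libraries labelled Shox2-/- at left and those labelled wild type at right, filled points for Diff9 libraries, a line for the mean and a whisker for the SD (n = 3). In all panels but Dusp6 the open wild type point, library 3, lies above the lowest point at left.

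Several ETS and inhibitor genes had positive differences within the Diff9 number but values near or below 0 outside it. Among the Diff9 libraries (Shox2-/- library 3 minus wild type libraries 1 and 2), the log2 difference was 1.47 for Etv4, 0.90 for Spry1, 0.80 for Etv1, 0.73 for Spry4, 0.63 for Spred3 and 0.55 for Spred1. Among the other libraries (Shox2-/- libraries 1 and 2 minus wild type library 3), it was -0.03 for Etv4, -0.17 for Spry1, -0.17 for Etv1, -0.04 for Spry4, -0.73 for Spred3 and 0.09 for Spred1. Only Etv5, Spred2, Spry3 and Spred1 of the 9 kept their sign in both comparisons, at 0.77 and 0.51 for Etv5, 0.41 and 0.69 for Spred2 and -1.32 and -2.10 for Spry3. Of the ligands, 7 of 10 kept it, among them Fgf3 (1.11 and 1.57), Fgf15 (0.92 and 0.53), Fgf5 (-1.09 and -2.72) and Fgf11 (-0.88 and -1.18). For genes whose groups do not overlap, such as these named ligands, Spred2 and Spry3, the sign is bound to be kept. Over all 24 FGF genes it was 14 (58.3%), against 59.2% of all genes. With 1 or 2 libraries on each side these splits give no test, and the number in the titles and wild type library 3 cannot be told apart outside Diff9. Leaving out wild type library 3, 17 of the 24 FGF genes did not overlap between labels (11 higher and 6 lower), against 41.8% of all genes. The 9 genes added to the 8 were Etv1, Etv4, Etv5, Spry1, Spry4, Spred1 and Fgf4, all higher, and Fgfr2 and Fgfr3, both lower. Leaving out Shox2-/- library 2 gave 14 (8 higher and 6 lower), against 37.6% of all genes.

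**Figure D5:**
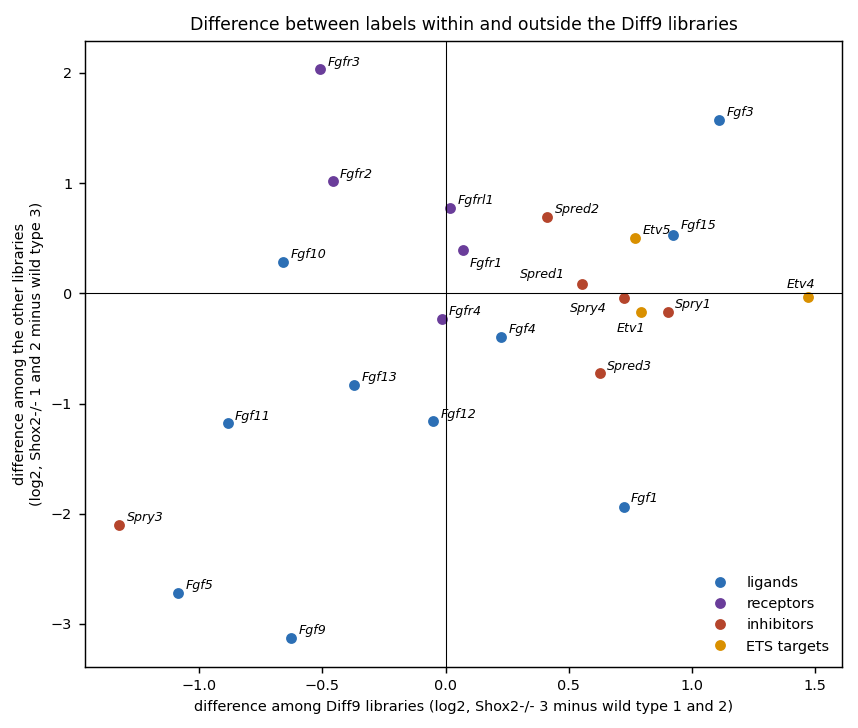
Log2 difference of the labels among the Diff9 libraries (horizontal) and among the other libraries (vertical) for the 24 tested FGF genes, coloured by role, with lines at 0. Fgf3 is at upper right (1.11 and 1.57), Spry3, Fgf5 and Fgf9 at lower left, Fgfr3 at upper left (-0.51 and 2.03), and 8 of the 9 inhibitor and ETS genes lie right of 0, with Etv4 furthest (1.47 and -0.03).

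The rest of the pathway was read through 67 further genes in 6 lists, of which 65 were tested. Again limma called 0 of the 65, with 15 passing at an unadjusted p under 0.05 (7 higher and 8 lower in the libraries labelled Shox2-/-), against 14.2% of all genes, and the weighted voom fit called 6, against 354 of all 17034 genes. Of the 65, 41 had positive and 24 negative estimates, with a median log2 difference of 0.13, and 22 (33.8%) did not overlap, against 23.6% of all genes. Of those 22, 15 were higher and 7 lower, against 12.8% and 10.8% of all genes. Of the receptor adaptors and RAS-MAPK genes, 20 of 23 had positive estimates, against 51.8% of all genes, with a median of 0.16. Of the 23, 7 (30.4%) were higher without overlap, against 12.8% of all genes. Lowest in p among them were Rps6ka3, an ERK-activated kinase (log2 difference 0.42, SE 0.10, limma adjusted p = 0.226), Cbl, a receptor-degrading ubiquitin ligase (0.38, SE 0.12, limma adjusted p = 0.278), and Hras (0.35, SE 0.11, limma adjusted p = 0.287).

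Among 7 genes of ERK phosphatases and other feedback, 4 estimates were positive. Dusp4, a nuclear MAP kinase phosphatase, showed 2747, 2157 and 2151 normalized counts in the libraries labelled Shox2-/-, against 1246, 1238 and 1538 in those labelled wild type (log2 difference 0.81, SE 0.14, limma adjusted p = 0.182). Dusp6, the ERK phosphatase that FGF signalling induces, gave 4675, 3356 and 4002 normalized counts in the libraries labelled Shox2-/-, against 2521, 2445 and 3059 in those labelled wild type (log2 difference 0.58, SE 0.15, limma adjusted p = 0.238). Unlike Etv4, both were separated between the labels, which fixes that their sign is the same within and outside the Diff9 number. These differences were 0.79 and 0.66 for Dusp4 and 0.69 and 0.37 for Dusp6. Flrt1, which binds FGF receptors, had a log2 difference of -1.02 (SE 0.31, limma adjusted p = 0.268).

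The 9 ERK-induced immediate genes were split in direction, with 4 estimates positive and 5 negative. At an unadjusted p under 0.05, 5 of the 9 passed, against 14.2% of all genes, and 4 of these were lower. Without overlap, 2 of the 9 were higher and 3 lower, against 12.8% and 10.8% of all genes. Fos, among the 4 lower, overlapped between the labels (log2 difference -0.79, SE 0.33, limma adjusted p = 0.342). Its difference was 0.02 among the Diff9 libraries and -1.46 among the others. Ier2 stood at 1528, 1411 and 1663 normalized counts in the libraries labelled Shox2-/-, against 2239, 2467 and 2194 in those labelled wild type (log2 difference -0.59, SE 0.11, limma adjusted p = 0.183). Egr1, a zinc finger factor induced within minutes of ERK activation, showed 1230, 1445 and 1726 normalized counts in the libraries labelled Shox2-/-, against 2211, 2263 and 2176 in those labelled wild type (log2 difference -0.61, SE 0.14, limma adjusted p = 0.214). Both were separated between the labels, as was Egr2 (log2 difference -0.65, SE 0.23, limma adjusted p = 0.303). Phlda1 and Fosl1 were higher without overlap, with log2 differences of 0.52 (SE 0.21, limma adjusted p = 0.329) and 0.51 (SE 0.29, limma adjusted p = 0.443), and are named after their values were seen.

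Of the cell-surface genes, the syndecans and glypicans, which carry heparan sulfate, had 4 positive and 5 negative estimates in 9. Sdc4 gave 1171, 1690 and 1564 normalized counts in the libraries labelled Shox2-/-, against 2124, 2114 and 2372 in those labelled wild type (log2 difference -0.59, SE 0.15, limma adjusted p = 0.232). Gpc6 and Sdc1 had log2 differences of -0.59 (SE 0.17, limma adjusted p = 0.252) and 0.34 (SE 0.15, limma adjusted p = 0.352). The 12 genes that make or edit heparan sulfate had 8 positive and 4 negative estimates, and 0 passed at an unadjusted p under 0.05. Their lowest p were those of Hs6st1 (-0.30), Glce (0.18) and Hs2st1 (0.24), as log2 differences. Among the klotho co-receptors and FGF-binding proteins, 1 of 5 estimates was positive, with Ncam1 at -0.83 (SE 0.26, limma adjusted p = 0.283), Fgfbp3 at 0.41 and Fgfbp1 at -0.94. Of the klotho co-receptors, Kl was below the test's level, with 5.19, 4.47 and 8.15 normalized counts in the libraries labelled Shox2-/- and 9.96, 12.4 and 19.6 in those labelled wild type. Klb was tested, and its groups overlapped. It gave 24.2, 76.0 and 37.8 normalized counts under the Shox2-/- label and 69.7, 72.3 and 29.05 under the wild type label. Its log2 difference was -0.35 (SE 0.51, limma adjusted p = 0.784).

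Of the sums of markers of other cells given next, the mesenchymal one separated the labels, as the epicardial one given above did. The others given next overlapped, the endodermal one only narrowly, with 8030 in Shox2-/- library 2 and 8024 in wild type library 2. No marker passed the limma test, and the part of these lists in the FGF results was not tested. The 11 mesenchymal markers summed to 185405 to 282504 normalized counts in the libraries labelled Shox2-/- and 375980 to 600635 in those labelled wild type, with 7 of 10 tested genes lower. Col3a1 made the largest part of that sum in every library. Twist1 went the other way, higher without overlap (log2 difference 0.99), and Prrx1 (0.21) and Pdgfra (0.05) also had positive estimates. Of the 7 epicardial markers tested, 5 were lower, 2 of them without overlap against 10.8% of all genes. Aldh1a2 (0.39) and Lrrn4 (0.44) had positive estimates. Of the epithelial markers, 10 of 10 tested were lower, 6 of them without overlap against 10.8% of all genes, although their sum overlapped at 6256 to 16532 in the libraries labelled Shox2-/- and 9370 to 13890 in those labelled wild type. Endodermal markers summed to 907, 8030 and 2492 in the libraries labelled Shox2-/- and to 8752, 8024 and 10731 in those labelled wild type. The sinoatrial list, Shox2 included, summed to 8069 to 8341 in the libraries labelled Shox2-/- and 6892 to 10515 in those labelled wild type. The primitive streak list summed to 346 to 471 under the Shox2-/- label and 262 to 763 under the wild type label. No marker on the 9 lists given here was at 0 in all 6 libraries, and the early mesoderm genes Mesp1 and Msgn1 stayed below 10 in all 6.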

How the data were processed

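RNA from 6 libraries of sorted ESC-derived cells was sequenced on an Illumina instrument from 500 ng of total RNA extracted with TRIzol, per the labels' protocols. The authors deposited 1 table a library with a normalized count for 30631 genes, and CASAVA 1.8.2, BWA, HTSeq, DESeq2 1.14.0 and the mm10 build are named by the submitters' processing notes, with no role given. Each value is a whole number of reads times 1 factor a library: 100% of values gave whole reads within 0.1 reads. Neither the kit nor strand use is given in the sources used here.

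Genes with at least 10 normalized counts in at least 3 libraries were tested with limma 3.58.1 (R 4.3.3) on log2(value + 1), with a mean-variance trend, 2-sided, and Benjamini-Hochberg adjustment over all genes tested. A fold on this scale understates the difference of low genes. Levels per kb use the summed exon length of the GENCODE M21 annotation (GRCm38, which is mm10), matched for 30497 of 30631 gene IDs. Promoters come from RefSeq's table for GRCm38.p6, which holds 24 of the 34 genes. Values in every library are given for tested genes with the lowest p, those whose groups did not overlap and the highest per kb of each role, and 3 genes with the lowest p are named per pathway list. Alternatives were other scalings, pseudocounts, filters and samples, a replicate block for Diff9, and voom on recovered reads. The numbers in the titles do not state a pairing. The rule for the FGF genes uses symbols alone, but this set, its pathway lists and its markers were chosen with earlier results of these data known. A further marker list is not reported here.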

Additional observations from a re-analysis of the deposited data

How the results depend on the processing

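The 0 calls among the FGF genes and the 0 among the other pathway genes held in all alternatives but 1: voom with library quality weights called 3 FGF genes (Fgf3, adjusted p 0.037, Etv4, 0.037, and Spred1, 0.042), 6 pathway genes (Dusp4, Dusp6, Ier2, Egr1, Sdc4 and Gpc6) and 354 of all genes. Without a filter 2 of all genes were called. Leaving out 1 library gave 0 to 51 calls over all genes, the 51 without Shox2-/- library 2, and 0 to 0 among the FGF genes and among the pathway genes. With the Diff9 replicate block, limma called 0 of all genes and 0 FGF genes, and 2529 genes passed unadjusted. With the wild type libraries 1 and 2, which were much alike, averaged as 1 sample, limma called 0 genes and 9 FGF genes did not overlap, against 28.8% of all genes. Leaving out 1 library, 8 to 17 FGF genes and 24 to 34 pathway genes did not overlap, both highest without wild type library 3, against 28.7% to 41.8% of all genes, also highest without it. These overlap counts and the voom fit without weights were added after seeing the data.

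Of 679 log2 values of named genes under the alternatives, 654 kept their sign and side of the threshold, 10 passed it under weighted voom, and 15 changed sign. The sign changed for Fgfr1 (-0.00069), Fgfr2 (-0.38), Fgfr3 (-0.49) and Spred3 (0.18) under weighted voom. Leaving out 1 library, the log2 difference ranged from -0.33 to 0.32 for Fgfr2, -0.52 to 0.77 for Fgfr3, -0.85 to 0.34 for Fgfr4, -0.30 to 0.35 for Spred3 and -0.095 to 0.37 for Fgf4. The lowest values of Fgfr2 and Fgfr3 came without wild type library 3, the highest of Fgfr4 without Shox2-/- library 1, the highest of Spred3 without Shox2-/- library 2 and the lowest of Fgf4 without wild type library 2. Fgf4 was also at -0.050 with the wild type libraries 1 and 2 averaged and -0.085 with the replicate block. The cause was not tested. The planned count models other than voom were not run. Low ligands such as Fgf5 and Fgf9 rest on few reads, which limits them.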
